A study of Homo sapiens with 4 samples.

Results

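RNA of 3 p38 mitogen-activated protein kinases, MAPK11, MAPK12 and MAPK13, was described in HUT78 cells with and without the compound CSH71. HUT78 is a long-established cell line from a human cutaneous T-cell lymphoma. The genes were chosen by symbol: each had 1 probe set named for it in the platform annotation, which makes 3 of the 14884 genes tested. According to the labels, 2 samples received 250 nM of CSH71 over 30 h while the other 2 had no treatment, all grown in IMDM with 10% serum, and no vehicle is mentioned for the untreated cells. Total RNA from each sample was measured on 1 Affymetrix whole-transcript array. All 4 arrays come from 1 cell line, and the labels give duplicates without saying whether these were separate cultures, so the p-values rest on the spread of these arrays, which may be technical alone. Per the series title, the chemicals target the lipid-binding domain (LBD) of a p38 kinase, and the design text names p38γ, the protein encoded by MAPK12, and the comparison asks whether RNA of that gene and its relatives differed after treatment.

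The p38 kinases are stress- and cytokine-activated enzymes that phosphorylate other kinases, transcription factors and RNA-binding proteins. The kinases MAP2K3 and MAP2K6 switch them on by phosphorylating a threonine and a tyrosine in the activation loop, and dual-specificity phosphatases switch them off. MAPK11 encodes p38β, MAPK12 p38γ and MAPK13 p38δ, while MAPK14, which encodes p38α, was not analysed here. In T cells, some forms of p38, though not all, can also be activated downstream of the T-cell receptor through the kinase ZAP70. p38γ differs from the other forms in ending in a motif that binds PDZ domains, and p38γ and p38δ are insensitive to the classical pyridinyl imidazole inhibitors that block p38α and p38β.

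In the RefSeq gene table of GRCh38.p14, used here for gene order, MAPK12 and MAPK11 lie next to each other on chromosome 22, and MAPK13 lies next to MAPK14 on chromosome 6. The 250 bases before each gene's start are printed because JUN, FOSL2 and CREM, which encode factors of the AP-1 and cAMP response element families, were among the 7 genes called in this comparison, and the letters such factors are known for can be looked up in these windows. The sequences are from RefSeq promoters (GRCh38.p14), and all 3 genes matched by symbol. Each runs 5′ to 3′ on the gene's strand, and capitals mark matches to the E-box and the cAMP response element core described after them, while GC boxes are left in lower case. They lie at chr22:50270381-50270630 (minus strand) for MAPK11, chr22:50261684-50261933 (minus strand) for MAPK12 and chr6:36130263-36130512 (plus strand) for MAPK13.
MAPK11: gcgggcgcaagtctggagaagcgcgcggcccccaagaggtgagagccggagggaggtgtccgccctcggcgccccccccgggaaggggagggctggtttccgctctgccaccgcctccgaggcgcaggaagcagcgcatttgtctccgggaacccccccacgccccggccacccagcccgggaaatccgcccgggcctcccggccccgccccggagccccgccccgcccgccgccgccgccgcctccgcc
MAPK12: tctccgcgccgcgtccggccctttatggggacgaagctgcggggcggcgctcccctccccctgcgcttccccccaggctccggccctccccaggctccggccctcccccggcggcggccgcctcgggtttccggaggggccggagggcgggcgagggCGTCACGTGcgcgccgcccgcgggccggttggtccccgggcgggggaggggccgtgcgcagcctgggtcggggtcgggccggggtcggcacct
MAPK13: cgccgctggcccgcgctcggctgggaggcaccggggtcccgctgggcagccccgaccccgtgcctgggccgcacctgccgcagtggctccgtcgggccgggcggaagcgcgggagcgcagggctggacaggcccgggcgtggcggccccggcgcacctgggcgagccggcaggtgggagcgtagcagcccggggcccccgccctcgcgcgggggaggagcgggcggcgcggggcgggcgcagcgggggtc

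The MAPK12 window alone of these 3 holds capitals. They join 1 E-box (CACGTG), the letters known for binding USF1 and MYC, and 1 core motif of the cAMP response element (TGACG, here on the opposite strand), which begin 90 and 93 bases before the start and share 2 bases. Of 35116 promoter windows of the same length, 6.3% hold the E-box and 21.2% the core on either strand. The AP-1 letters TGACTCA occur in none of the 3 windows and in 4.2% of all windows. The GC box GGGCGG, known for binding SP1, occurs 5 times before MAPK11 and 4 times before each of MAPK12 and MAPK13, and 42.6% of all windows hold it at least once. The 3 windows are rich in G and C, at 79.2%, 82.0% and 84.4% for MAPK11, MAPK12 and MAPK13 against a median of 58.0%, and none holds TATAAA, which 10.7% of all windows do. A match is a description of letters and shows no binding.

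Each probe set has 1 linear intensity on each array, without a detection call or a background level. Array medians over all probe sets lay between 71.5 and 81.1, and precision is limited by there being 4 arrays. As a check of the cell line, 9 of 13 T-cell markers were measured. CD5 lay between 1729 and 2100, ZAP70 between 1577 and 1829 and CD4 between 384 and 452, while CD3E was not analysed here. None of the measured T-cell, B-cell, monocyte, epithelial or fibroblast markers was listed at 0. The summed level of the T-cell markers was 7439 and 7586 on the untreated arrays and 7803 and 7176 on the treated ones. Markers of other cell types were not all dim: EPCAM, an epithelial adhesion molecule, lay between 1943 and 2169, KRT18, a keratin, between 467 and 576, the B-cell kinase gene BLK between 256 and 347, CD22 between 186 and 300.4, the monocyte receptor CSF1R between 158 and 235, S100A9 between 91.5 and 134 and CD14 between 63.5 and 91.5. Besides CD4 and CD14, which were named whatever their level, the markers given are the 2 brightest measured of each list by mean. The unnamed markers had lower means than those 2, but were not ranked against CD4 or CD14. The 4 measured epithelial and fibroblast markers (of 8 listed) summed to 2777 and 2652 untreated and 2546 and 2869 treated, mostly EPCAM. B-cell markers (4 of 8) summed to 843 and 723 untreated and 612 and 743 treated. Monocyte markers (6 of 8) summed to 694 and 525 untreated and 532 and 623 treated. Their part in the p38 values was not tested.

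MAPK12 had an intensity of 109 and 107 on untreated arrays 1 and 2, and of 97.8 and 106 on CSH71 arrays 1 and 2. Both treated arrays read below both untreated arrays, but the gap between the groups was 0.45 intensity units, and the difference between the treated arrays was far larger than that gap. Groups that do not overlap with the treated arrays lower occurred in 16.6% of all genes, and in either direction in 31.6%. The means were 108 ± 1.45 untreated and 102 ± 5.99 treated (SD, n = 2 per group). On the log2(intensity + 16) scale used throughout for fold changes, where the added 16 avoids the logarithm of 0 and understates changes of dim genes, the difference was -0.07 ± 0.17 (SE; adjusted p = 0.999, limma with Benjamini-Hochberg adjustment over all 14884 genes).

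The 95% interval of the MAPK12 difference ran from -0.46 to 0.33, that is from 0.725 to 1.25 times the untreated value of intensity + 16; with a pseudocount of 1 the interval was -0.51 to 0.35. Neither a 2-fold fall nor a 2-fold rise of the measured signal lies in either interval. In bulk RNA, fewer cells with the transcript and less of it per cell cannot be told apart. Because no background level is given, the interval bounds the change of the signal and not that of the RNA. With 2 arrays per group, which cannot show that a gene is steady, the pooled SD of MAPK12 within groups was 0.053 on the log2 scale. The median was 0.179, and 92.7% of genes varied more on these arrays. The moderated SE, 0.167, is therefore mostly the fit's prior, which carried 4.92 degrees of freedom against 2 from the arrays.

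MAPK11, which encodes the form nearest to p38α in inhibitor sensitivity, read 209.7 and 193 on untreated arrays 1 and 2, and 219.8 and 159 on CSH71 arrays 1 and 2. The highest and the lowest value both came from treated arrays, so the groups overlapped. The means were 202 ± 11.6 untreated and 189.6 ± 42.7 treated (SD, n = 2 per group). The log2 difference was -0.10 ± 0.20 (SE; limma adjusted p = 0.999), with a 95% interval from -0.58 to 0.38. The 2 treated arrays differed from each other by 0.43, which is larger than the difference between the groups. Without CSH71 replicate 2 the difference was 0.12 and without CSH71 replicate 1 it was -0.31, so its sign rests on 1 treated array.

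MAPK13, which encodes p38δ, read 217 and 270.4 on untreated arrays 1 and 2, and 222 and 233 on CSH71 arrays 1 and 2. Both treated values fell between the untreated ones. The means were 244 ± 37.6 untreated and 227 ± 8.02 treated (SD, n = 2 per group), with a log2 difference of -0.09 ± 0.18 (SE; limma adjusted p = 0.999) and a 95% interval from -0.52 to 0.35. Here the untreated arrays spread more, by 0.30 on the log2 scale against 0.07 between the treated ones. Without untreated replicate 2 the difference was 0.06, and without untreated replicate 1 it was -0.24.

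**Figure D1:**
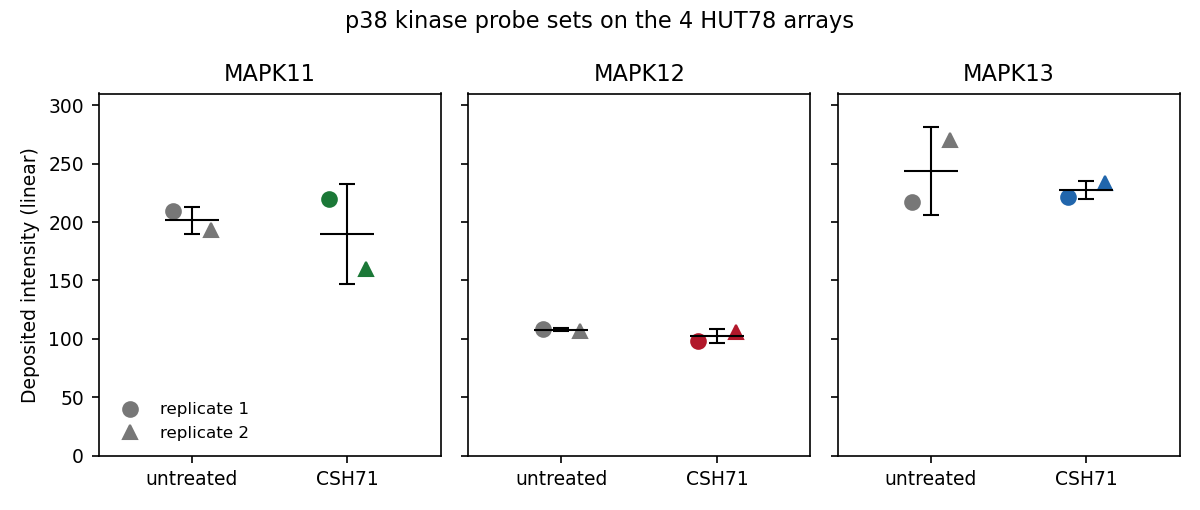
Deposited linear intensity of the MAPK11, MAPK12 and MAPK13 probe sets on each of the 4 arrays, with circles for replicate 1, triangles for replicate 2, and the group mean and SD as a bar with whiskers. The MAPK12 values lie between 97.8 and 109 with both treated arrays lowest, whereas the groups overlap for MAPK11 (159 to 219.8) and MAPK13 (217 to 270.4).

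Taking each treated array against each untreated one, the 4 log2 differences were -0.13, -0.11, -0.03 and -0.005 for MAPK12. For MAPK11 they ran from -0.36 to 0.17, with CSH71 array 1 above both untreated arrays and CSH71 array 2 below both. For MAPK13 they ran from -0.27 to 0.10, positive against untreated array 1 and negative against untreated array 2. The signs thus followed the treated array for MAPK11 and the untreated array for MAPK13.

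All 3 genes had a negative fold change and 0 of 3 passed the test at an adjusted p under 0.05, or at an unadjusted limma p under 0.05. Over all genes 0.0470% were called, 0.0403% higher and 0.00672% lower, and 5.10% had an unadjusted p under 0.05. At such shares a count of 0 of 3 says little about so few members. The median of the 3 fold changes was -0.09 against -0.01 for all genes. In size they were below the middle of the distribution: 62.5% of genes had a larger absolute fold change than MAPK11, 65.5% than MAPK13 and 72.2% than MAPK12. The median absolute log2 fold change was 0.137, and the smallest among called genes was 1.94.

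**Figure D2:**
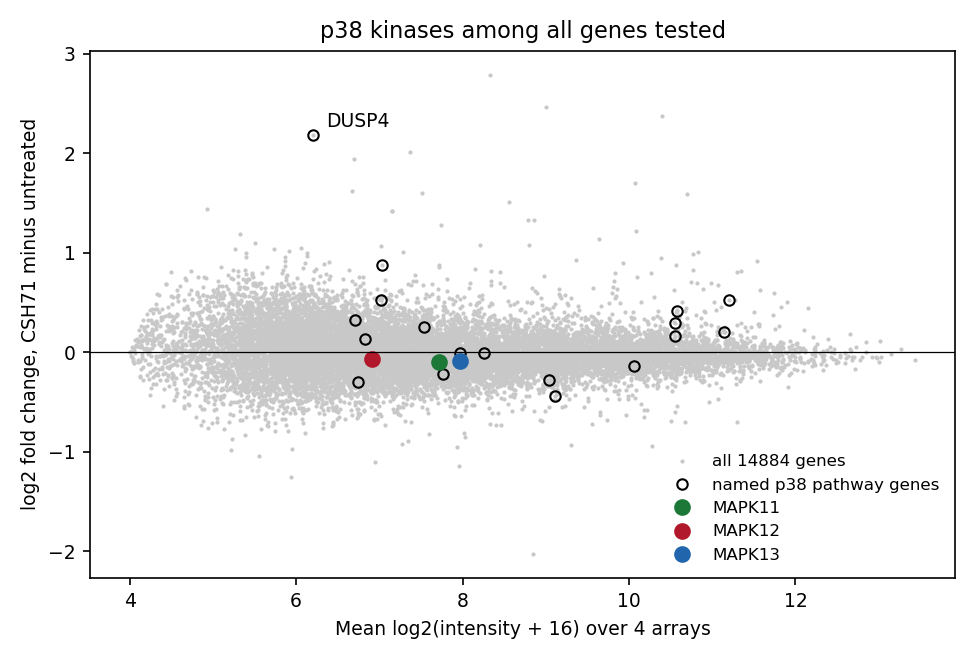
Log2 fold change of CSH71 over untreated against the mean log2(intensity + 16) over 4 arrays, for all 14884 genes (grey), the named p38 pathway genes (open circles) and the 3 p38 kinases (filled circles). The p38 kinases lie between -0.10 and -0.07 inside the grey cloud, while DUSP4 stands at 2.18.

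The intensities of the p38 kinases in this line can be set side by side only as signals, because probe sets differ in how strongly they respond and the table gives no per-length level. The MAPK13 probe set read 1.52 to 1.99 times the median gene of its array, at the 60.3 to 63.8 percentile of named genes. MAPK11 read 1.15 to 1.62 times the median gene, at the 53.5 to 60.2 percentile. It read below MAPK13 on every array, although the ranges of these multiples overlapped over the 4 arrays. MAPK12 read 0.722 to 0.785 times the median gene, at the 40.9 to 44 percentile, and lay below the other two on every array. These positions order the signals of 3 probe sets and do not order the RNA levels of p38β, p38γ and p38δ.

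Differences between the 3 signals on an array were also compared between the groups. The within-array log2 difference of MAPK11 minus MAPK12 was 0.86 and 0.77 untreated and 1.05 and 0.52 treated, that of MAPK11 minus MAPK13 was -0.05 and -0.45 untreated and -0.01 and -0.51 treated, and that of MAPK12 minus MAPK13 was -0.90 and -1.22 untreated and -1.06 and -1.03 treated. The treated and untreated means of these differences were -0.03, -0.01 and 0.02 apart in the same order. A two-sided exact permutation test over the 4 arrays gave p = 1 for each of the 3 pairs, and 1 after Benjamini-Hochberg adjustment. With 2 arrays per group that test cannot go below 0.333, so it could not have passed a threshold of 0.05, and the values do not show that the 3 genes respond alike.

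By Euclidean distance between log2 values over the 4 arrays, the genes nearest to MAPK12 were PCDH10, a protocadherin gene, at 0.02 and the microRNA gene MIR212 at 0.09. PCDH10 read 107 and 106 untreated and 97.8 and 107 treated, close to MAPK12 on every array. Nearest to MAPK11 were BBLN (0.13) and CCDC40 (0.13), and nearest to MAPK13 were CEP19 (0.04) and IRAK1BP1 (0.08). BBLN read 210.3 and 208 untreated and 232 and 164 treated, with CSH71 array 2 lowest as for MAPK11. CEP19 read 223 and 266 untreated and 224 and 234 treated, with untreated array 2 highest as for MAPK13. Within a distance of 0.2 there were 32 genes for MAPK12, 19 for MAPK11 and 41 for MAPK13, and the p38 kinases were not among each other's nearest, at distances of 0.68 to 2.12. The distance covers 4 arrays of 1 line and mixes level with pattern. Neighbours were picked by these same 4 values, so their likeness to each kinase follows from the choice.

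The upstream kinases of p38 likewise gave 0 calls. Of 20 listed activators 16 were measured and 0 passed the limma threshold in either direction, where 0.0470% of all genes did. At an unadjusted limma p under 0.05 there were 0, where 5.10% of all genes were, so these counts say little about so few members. With 7 fold changes above 0 and 9 below it, the median was -0.01, as for all genes. MAP2K3, which phosphorylates p38 directly, read 279 and 303 untreated and 296 and 282 treated, a log2 difference of -0.01 that turned to 0.04 after quantile normalization and 0.01 after median centring. MAP2K6, its close relative, read 201 and 278 untreated and 209 and 263 treated, a log2 difference of -0.01 with the same turns, to 0.04 and 0.01. In each case the groups overlapped. MAP3K7, the TAK1 kinase that activates MAP2K3 and MAP2K6, was at 0.29 ± 0.18 (SE), MAP3K5, the oxidant-responsive kinase ASK1, at -0.28 ± 0.19 and TAOK1 at 0.16 ± 0.17.

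Among the phosphatases that can inactivate p38, 7 of 12 listed were measured and DUSP4 alone passed the limma threshold, upwards, as 0.0403% of all genes did. DUSP4 read 17.2 and 20.3 untreated and 156 and 128 treated, a log2 fold change of 2.18 ± 0.18 (SE; limma adjusted p = 0.0247). That call ended in 5 of 13 alternatives, namely quantile normalization (adjusted p = 0.121), a pseudocount of 1 (0.26), a fit of all probe sets (0.226), and without untreated replicate 1 (0.332) or untreated replicate 2 (0.38), and the adjusted p ran between 5.5e-12 and 0.38 across them. The lowest came from the replicate block, where infinite prior degrees of freedom left DUSP4's own spread unused. The same held with an intensity trend in the prior (limma adjusted p = 8.9e-11). DUSP4 was among the dimmest 40% of genes, so the fit without these gave no value for it. Its fold change ran from 1.31, with a pseudocount of 64, to 2.85, with a pseudocount of 1.

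The other 6 measured phosphatases did not pass. DUSP8 was at 0.88 ± 0.18 (SE), DUSP1, an immediate early phosphatase of p38 and JNK, at 0.53 ± 0.17, and DUSP10, which prefers p38 and JNK, at 0.42 ± 0.17. DUSP10 was bright, at 1306 and 1303 untreated and 1832 and 1667 treated, and passed where the variance prior followed intensity (limma adjusted p = 0.0107). In that fit infinite prior degrees of freedom left the spread of DUSP10 itself unused. The list had a median log2 fold change of 0.53 against -0.01 for all genes, 6 positive values and 1 negative, 4 of 7 members at an unadjusted limma p under 0.05 where 5.10% of all genes were, and 7 of 7 members whose groups did not overlap where 31.6% of all genes had that. It was chosen with earlier results of these data known, so its direction is not independent evidence.

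Downstream, 0 of the 6 measured target kinases (of 8 listed) and 0 of the 8 measured substrate factors (of 14 listed) passed the limma threshold, with 0 and 1 at an unadjusted p under 0.05 and medians of -0.06 and 0.06. Over all genes 0.0470% were called and 5.10% had such a p, so these counts say little about so few members. MAPKAPK2, the best-known kinase activated by p38, read 2105 and 2071 untreated and 2452 and 2367 treated, a log2 fold change of 0.20 ± 0.16 (SE). MKNK1, which phosphorylates the translation factor eIF4E, was at 0.25 ± 0.18 and MKNK2, which does the same, at -0.13 ± 0.17. MEF2D, a transcription factor phosphorylated by p38, read 1959 and 1942 untreated and 2904 and 2735 treated, without overlap. The MEF2D log2 fold change of 0.53 ± 0.17 missed the threshold (limma adjusted p = 0.928) but passed where the variance prior followed intensity (1.77e-07). In that fit infinite prior degrees of freedom left the spread of the gene itself unused. DDIT3, the stress factor CHOP, was at 0.33 ± 0.19 and USF1 at -0.22 ± 0.18.

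Among 5 scaffold and docking proteins, all 5 measured, 0 passed the limma threshold, where 0.0470% of all genes did. At an unadjusted limma p under 0.05, where 5.10% of all genes were, there was 1. That was SH3BP5, a mitochondrial protein that binds JNK, which read 630.03 and 629 untreated and 459 and 459.7 treated. Its replicates differed by under 1 intensity unit in each group, and its log2 fold change was -0.44 ± 0.16 (SE; limma adjusted p = 0.93). MAPK8IP1 was at -0.30 ± 0.29 and MAPK8IP2 at 0.13 ± 0.28, both with overlapping groups, and the other probe set of MAPK8IP1 gave -0.07. The 5 listed PDZ-domain partners of p38γ, DLG1 and PTPN3 among them, were not analysed here. Of the other mitogen-activated protein kinases 8 of 10 listed were measured and 0 passed, or had an unadjusted p under 0.05, with a median of -0.07. Beside the same shares over all genes, these counts say little about so few members. The smallest p in that list belonged to MAPK4 at -0.32 ± 0.18, NLK at -0.19 ± 0.19 and MAPK10 at -0.19 ± 0.23. With 1 array left out, NLK ran from -0.38 to -0.01 and MAPK10 from -0.48 to 0.09.

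**Figure D3:**
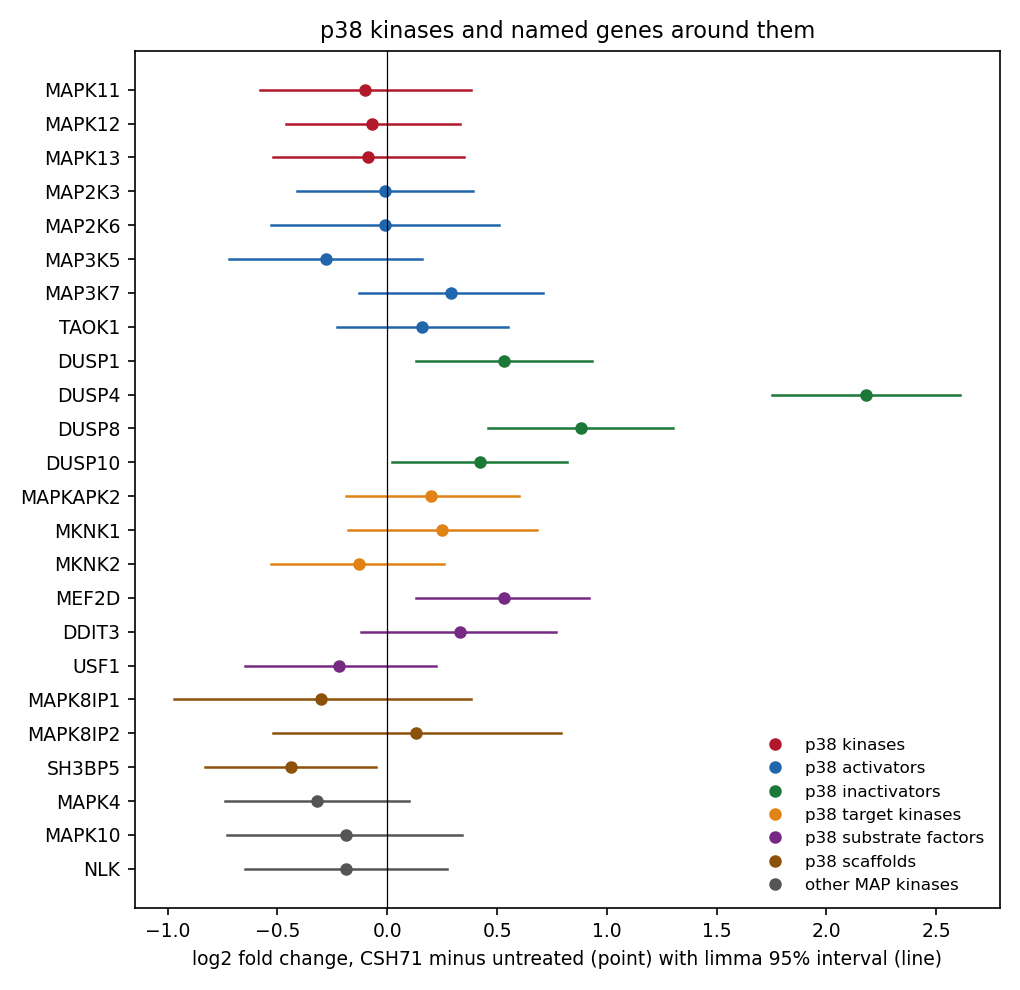
Log2 fold change of CSH71 over untreated (points) with limma 95% intervals (lines) for the 3 p38 kinases and the named genes around them, coloured by role. The intervals of MAPK11, MAPK12 and MAPK13 span 0 and stay inside -0.58 to 0.38, and DUSP4 at 2.18 stands apart from every other gene shown.

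**Figure D4:**
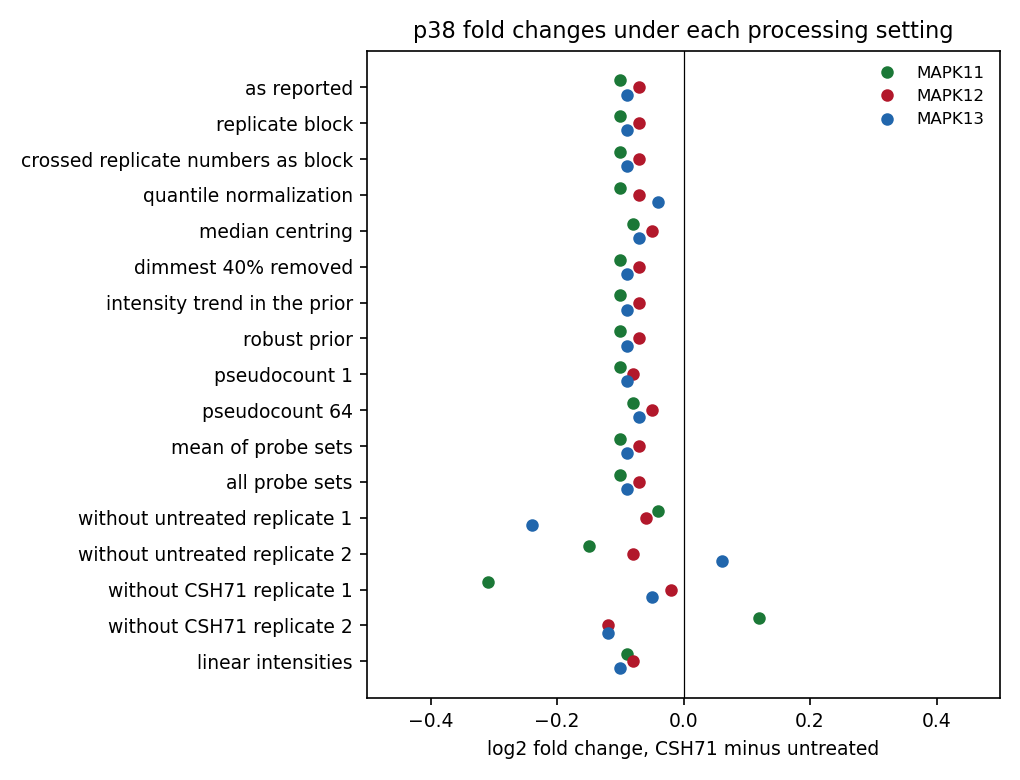
Log2 fold change of MAPK11, MAPK12 and MAPK13 as reported and under each of 16 alternatives, 1 line per setting. MAPK12 stays between -0.12 and -0.02, whereas MAPK11 and MAPK13 cross 0 when 1 array is left out, at 0.12 and 0.06.

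In the alternatives that gave a limma test, 0 calls were made for any of the 3 p38 kinases, and the smallest adjusted p was 0.894; the ratio of linear means had no test. The MAPK12 difference was negative in 16 of 16 alternatives, from -0.12 to -0.02, although most of these settings reuse the same 4 values. Because both treated values lay below both untreated ones, most of these settings could not have changed its sign, so the count is no evidence of a fall. The widest 95% interval among them for MAPK12 reached from -0.68 to 0.54.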

How the data were processed

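Total RNA of 4 HUT78 samples, 2 untreated and 2 given CSH71 (group and replicate from the titles), was measured on 4 arrays. The authors deposited 1 linear intensity for each probe set and array. Affymetrix Expression Console is named in the submitters' processing notes, and neither its version nor how it summarised, background-corrected or normalized the values is given in the sources used here. Of 53617 probe sets, 16098 had 1 symbol, 0 several and 37519 none in the platform annotation; all 16098 entrez identifiers matched RefSeq (GRCh38.p14) and 0 symbols changed. Where a gene had several probe sets (779 genes) the brightest was used, leaving 14884 genes. Values were taken as log2(intensity + 16) without further normalization and compared with limma 3.58.1 (R 4.3.3), default settings, 2-sided, with Benjamini-Hochberg adjustment over all genes and a threshold of 0.05. The procedure was also run on simulated data with normal errors, variances drawn as limma assumes and no array effects. That run does not show how it behaves where real arrays depart from this. Figures used matplotlib 3.10.9.

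The members and gene lists were chosen with earlier results of these data known. Besides the 3 kinases, the text names up to 3 members of each p38-related list by smallest p, any called member, MAP2K3, MAP2K6, MAPKAPK2, DUSP10, DLG1 and PTPN3, the 2 brightest of each marker list with CD3E, CD4, CD14 and COL1A1, and the 2 genes nearest each kinase; COL1A1 was not analysed here, and 1 further marker is not reported here. JUN, FOSL2 and CREM were named after their values were seen. Alternatives were the replicate block, quantile normalization, median centring, removal of the dimmest 40% of genes, an intensity trend or robustness in the prior, pseudocounts of 1 and 64, the mean over a gene's probe sets, a fit of every probe set, and leaving out each array. A crossed block and a ratio of linear means were chosen after seeing the data.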

Additional observations from a re-analysis of the deposited data

How the results depend on the processing

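MAPK12 kept its sign under all 16 alternatives (-0.12 to -0.02 with 1 array left out). In most of them the sign could not have changed. Both treated values lay below both untreated ones, so neither leaving out an array nor another pseudocount could turn it. The blocks, priors, filter and probe-set settings returned the same -0.07. The count of 16 is thus no evidence of a fall. MAPK11 ran from -0.31 to 0.12 and MAPK13 from -0.24 to 0.06 with 1 array left out, and from -0.10 to -0.08 and -0.10 to -0.04 otherwise. MAPK12 minus MAPK13 changed by 0.02 as reported and by -0.03 after quantile normalization. The number of genes called, 7 as reported, was 0 after quantile normalization (964 at an unadjusted limma p under 0.05), with a pseudocount of 1 (768) and for all probe sets (2367), 11 without the dimmest 40%, 27 after median centring, 33 with a pseudocount of 64, 143 with an intensity trend in the prior, and 0 to 29 with 1 array left out: 0 without untreated replicate 1 (794) or 2 (609), 29 without CSH71 replicate 1 and 20 without CSH71 replicate 2. The cause was not tested. With 4 arrays and no background level, the intervals bound signals and not RNA.

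With the replicate block, where infinite prior degrees of freedom left each gene's own spread unused, limma called 27 genes and 0 of the p38 kinases (MAPK11 -0.10, MAPK12 -0.07, MAPK13 -0.09, adjusted p = 1 each). Over genes, the difference of replicate 1 minus 2 correlated at -0.29 between the groups. Genes higher on untreated array 1 than 2 thus tended to be higher on CSH71 array 2 than 1. Array medians over all probe sets were 77.5 and 81.1 on untreated array 1 and CSH71 array 2. On untreated array 2 and CSH71 array 1 they were 71.5 and 73.6. What these arrays share was not tested. A crossed block called 0 genes (1288 at an unadjusted limma p under 0.05).

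Of 512 values of the 37 other named genes, 471 kept sign and side of the threshold, 5 lost and 2 gained a call and 34 changed sign, in genes not called. After quantile normalization and median centring these were MAP2K3 (0.04 and 0.01), MAP2K6 (0.04 and 0.01) and EPCAM (0.00 and 0.01). With 1 array left out, those that changed sign ran over MAP2K3 (-0.07 to 0.05), MAP2K6 (-0.23 to 0.21), MAPK8IP1 (-0.67 to 0.08), MAPK8IP2 (-0.20 to 0.47), MAPK10 (-0.48 to 0.09), CD4 (-0.15 to 0.04), ZAP70 (-0.13 to 0.08), CD22 (-0.41 to 0.22), CD14 (-0.15 to 0.29), CSF1R (-0.34 to 0.07), EPCAM (-0.08 to 0.07), KRT18 (-0.17 to 0.10), BBLN (-0.32 to 0.14), CCDC40 (-0.15 to 0.19), PCDH10 (-0.11 to 0.01), MIR212 (-0.10 to 0.03), CEP19 (-0.20 to 0.04) and IRAK1BP1 (-0.32 to 0.03). Others kept their sign, with values that moved over 1.5 times: MAP3K5 (-0.42 to -0.13), MAP3K7 (0.18 to 0.40), MKNK1 (0.11 to 0.39), MKNK2 (-0.19 to -0.08), DDIT3 (0.16 to 0.49), USF1 (-0.35 to -0.08), MAPK4 (-0.44 to -0.20), NLK (-0.38 to -0.01) and S100A9 (-0.41 to -0.05).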
